A study of Homo sapiens with 12 samples.

Results

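The cytochrome P450 (CYP), alcohol dehydrogenase (ADH), aldehyde dehydrogenase (ALDH), UDP-glucuronosyltransferase (UGT), glutathione S-transferase (GST) and sulfotransferase (SULT) families were represented by 59 genes in Hep-G2 cells. They were chosen by their family name and by a mean FPKM (fragments per kilobase of gene length, scaled to library size) of at least 0.5 over all 6 Hep-G2 libraries, siC and siI1 together. This left 59 of the 119 protein-coding genes with a matching name, among 19799 protein-coding and 58174 listed genes. Past the floor were 19 of 54 CYP, 5 of 7 ADH, 14 of 17 ALDH, 5 of 19 UGT, 7 of 11 GST and 9 of 11 SULT genes, and 15 of the 60 genes under it had 0 reads in every Hep-G2 library. CYP51A1 and ALDH1L2, left out by name, had mean FPKM values of 2.65 and 0.470. Just inside the floor lay CYP27B1 at 0.516 and SULT1A4 at 0.581, and just outside it CYP8B1 at 0.486 and CYP2D6 at 0.407.

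IGF2BP1 is an RNA-binding protein of fetal and cancer cells, and the study asked which RNAs depend on it in tumor-derived cells. Hep-G2 (liver cancer) and BE(2)-C (neuroblastoma) cells were transfected with control siRNAs (siC) or a pool of siRNAs directed at IGF2BP1 (siI1) and harvested after 72 hours. Polyadenylated RNA was sequenced in 3 libraries per siRNA and cell line, 12 in all, with 12852988 to 15721210 reads on genes per library. The p-values below measure the spread between these libraries.

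In the liver, foreign compounds and endogenous lipids and hormones are usually first oxidized, mainly by P450 enzymes, and then coupled to a polar group by UGT, GST or SULT enzymes. Alcohols are oxidized to aldehydes by ADH enzymes, and the aldehydes to acids by ALDH enzymes. Hepatocytes express many of these genes at high levels, whereas Hep-G2 cells are known to retain only some of them.

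IGF2BP1 itself had FPKM values of 48.5, 46.6 and 50.8 with siC and 12.6, 10.7 and 10.7 with siI1 in the Hep-G2 libraries (log2 fold change -2.1, SE 0.08, adjusted p = 7.8e-06 from limma). In BE(2)-C the values were 21.3, 20.6 and 21.6 with siC and 4.85, 4.75 and 4.87 with siI1 (log2 fold change -2.11, SE 0.05, adjusted p = 1.5e-05 from limma). In both cell lines every siI1 library lay below every siC library. Replicate 1 of the Hep-G2 siI1 libraries stood apart from the others of its group. The variance of its read counts against replicates 2 and 3 was 13.8 and 14.3 times that of counting error (chi-square over degrees of freedom). This ratio was 1.98 between replicates 2 and 3 and 2.28 to 5.32 among the siC libraries. For 32 of the 59 enzyme genes the FPKM of replicate 1 was the nearest to the siC mean, which held for 13 genes in replicate 2 and for 14 in replicate 3. Results are therefore given with all libraries, and the counts of all enzyme genes and of the families also without this one.

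Upon IGF2BP1 depletion in Hep-G2, 33 of the 59 enzyme genes were upregulated, 12 were downregulated and 14 were not called, at an adjusted p below 0.05 from limma over all 19436 tested genes. Across all tested genes 21.9% were called higher and 23.0% lower, and across the 11383 tested protein-coding genes past the same FPKM floor 26.6% were called higher and 33.0% lower. The median log2 fold change of the enzyme genes was 0.46, compared with 0.01 over all tested genes and -0.06 over the protein-coding genes past the floor. Every siI1 library lay above every siC library for 36 enzyme genes and below for 12, and the groups overlapped for 11; over all tested genes these shares were 28.0% above and 27.8% below. ADH1A, ADH1B, GSTM1 and SULT2B1 passed the floor only through their siI1 values and CYP27B1 only through siC, so these genes had to differ and the counts describe the set without supporting a direction. Among the 55 genes with a mean of at least 0.5 in siC alone, 29 were higher and 12 lower, with a median of 0.36. Without siI1 replicate 1, 43 of the 45 calls were kept and ALDH6A1 and CYP2J2 were no longer called, which left 6 higher ALDH and 3 lower CYP genes and the counts of the other families as below. In bulk RNA, fewer cells expressing a gene and less of its RNA per cell cannot be told apart.

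The plot of FPKM by library shows how far the genes lay apart in level as well as in response. ALDH1A1 had the highest mean level among the 59 genes, and GSTA1 and SULT2A1 came next. Levels of ADH1A and ADH1B were the lowest in siC.

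**Figure D1:**
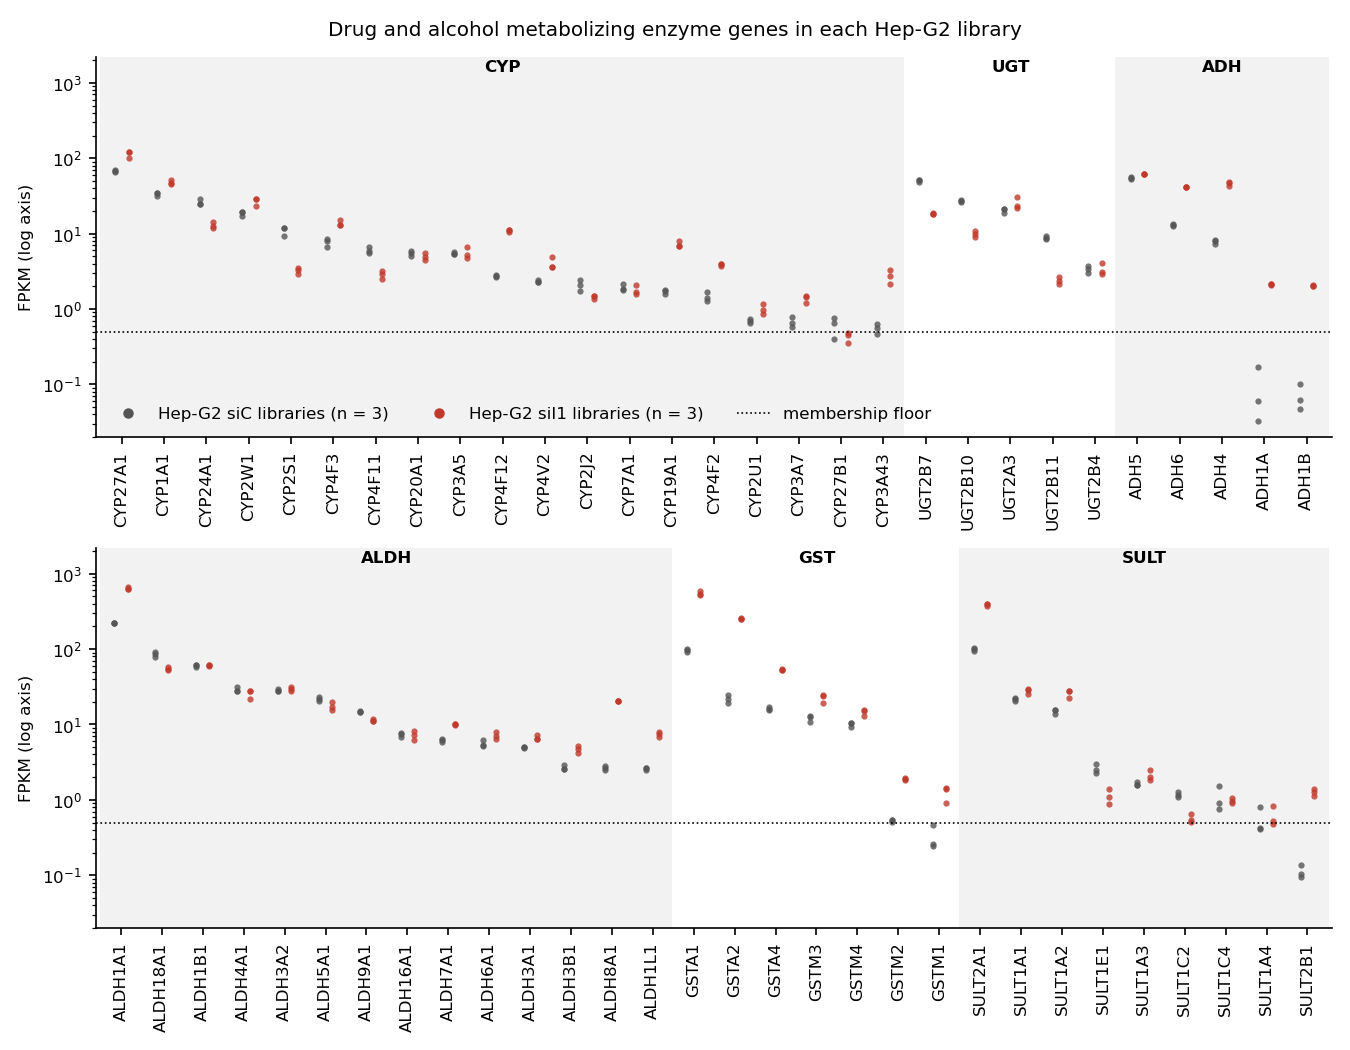
FPKM of each of the 59 enzyme genes (log axis) in every Hep-G2 library, with 3 siC points in grey and 3 siI1 points in red per gene, grouped by family and ordered by siC mean; the dotted line marks the mean FPKM of 0.5 used as floor. The siI1 points lie above the siC points for all 5 ADH and all 7 GST genes and below them for 3 of 5 UGT genes.

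Counts by family are given against the 21.9% higher and 23.0% lower of all tested genes (26.6% and 33.0% of the protein-coding genes past the floor); no test between families was made. The 3 ADH and 6 GST genes with a mean of at least 0.5 in siC alone all rose, with median log2 fold changes of 1.67 and 1.69; ADH1A, ADH1B and GSTM1 rose too, as the floor required of them. In the CYP family 10 of 19 genes rose and 4 fell (median 0.52), in the ALDH family 7 of 14 rose and 3 fell (median 0.21), and in the SULT family 3 of the 8 genes past the floor in siC alone rose and 2 fell (median 0.25), so that in these 3 families the share of lower genes was near that of all tested genes. No UGT gene was called higher by limma, 3 of 5 fell, and the median was -1.42; UGT2A3 had siI1 values above siC without passing the test, and was called higher with median centring, with the replicate number as a block and with voom. With an absolute log2 fold change of at least 1 as a further condition, 18 of the 59 genes were higher and 7 lower, against 8.08% and 6.89% of all tested genes and 6.74% and 7.45% of the protein-coding genes past the floor; 4 of the 18 had to be higher by the floor, and of the 55 genes past it in siC alone 14 were higher and 7 lower. None of the called genes changed direction when libraries were scaled to equal sums of FPKM or centred on their median. Equal sums moved the median log2 fold change of all genes by -0.15. Of all calls, 48.8% were higher before and 35.5% after this scaling, and of the calls among enzyme genes 73.3% and 68.9%. Median centring moved these shares the other way, to 57.6% of all calls and 78.3% of the calls among enzyme genes.

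**Figure D2:**
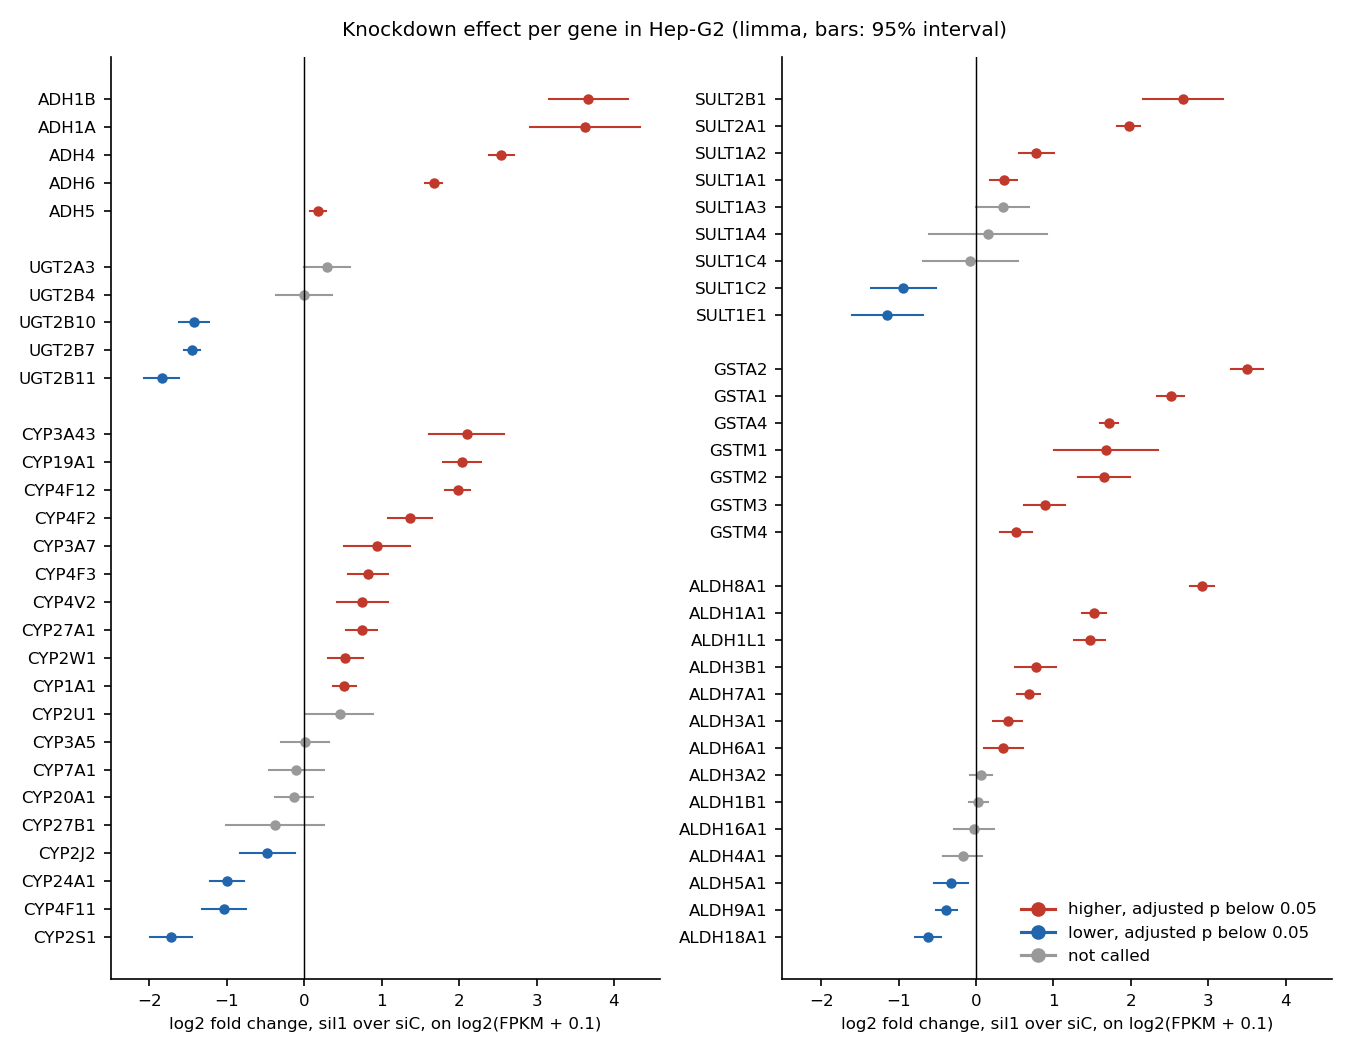
Log2 fold change of siI1 over siC with its 95% interval for each of the 59 enzyme genes in Hep-G2, grouped by family; red genes were called higher and blue genes lower (adjusted p below 0.05 from limma), and grey genes were not called. Values run from -1.84 for UGT2B11 to 3.67 for ADH1B.

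Summed over its members, FPKM differed between the siRNAs in each family without overlap of the libraries, as the plot of family sums shows. The GST sum was 158 ± 4.62 (SD, n = 3) with siC and 897 ± 39.2 with siI1, 5.68-fold higher. The SULT sum went from 142 ± 3.02 to 447 ± 19.3 (3.15-fold), and the ADH sum from 76.2 ± 1.67 to 154 ± 2.65 (2.02-fold). Single genes carried some of these sums: without SULT2A1 the SULT sum was 1.38-fold higher, and without ADH5 the ADH sum was 4.37-fold higher. The ALDH sum rose from 493 ± 3.70 to 905 ± 22.2 (1.84-fold), but without ALDH1A1 the ratio of siI1 to siC was 0.977. The CYP sum was 196 ± 6.99 with siC and 267 ± 10.9 with siI1 (1.36-fold), and the UGT sum 110 ± 1.05 and 59.4 ± 6.31 (a ratio of 0.540). Without CYP27A1 the CYP sum was 1.19-fold higher, without GSTA1 the GST sum was 5.6-fold higher, and without UGT2B7 the UGT ratio was 0.689. Without siI1 replicate 1 the 6 ratios lay between 0.508 for UGT and 5.79 for GST. With equal sums of FPKM they were 0.483 for UGT, 1.21 for CYP, 1.64 for ALDH, 1.80 for ADH, 2.80 for SULT and 5.06 for GST. Together the 59 genes held 0.455% of all FPKM with siC and 0.941% with siI1. The sums were not tested.

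**Figure D3:**
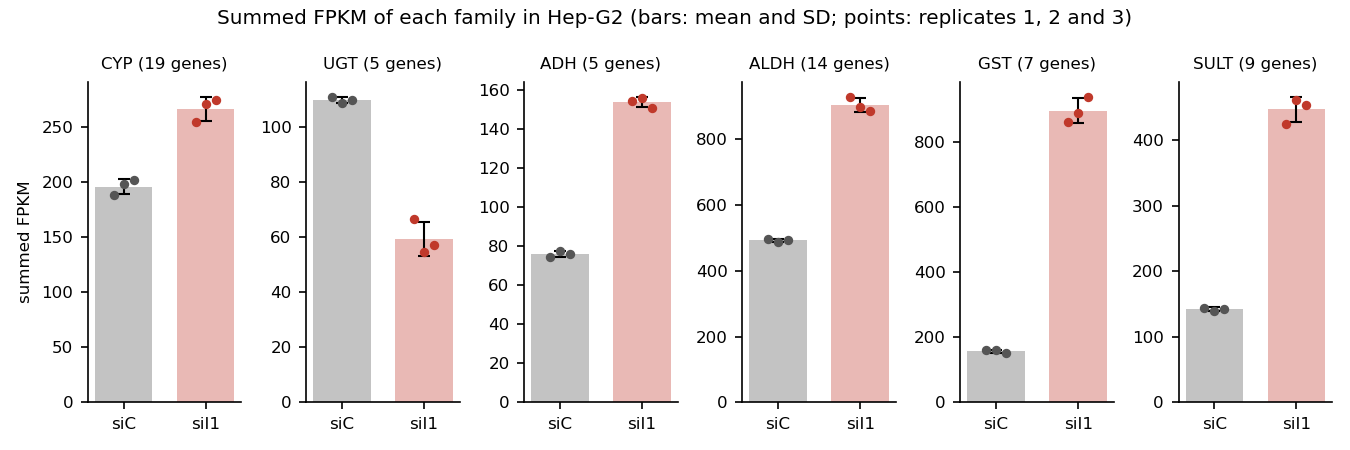
Summed FPKM of each enzyme family in the Hep-G2 siC and siI1 libraries; bars give the mean, error bars the SD and points replicates 1, 2 and 3. The UGT sum is lower with siI1 and the other 5 sums are higher, and each panel has its own axis starting at 0.

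Among the P450 genes of the CYP1, CYP2 and CYP3 families, 4 of 8 rose (50%, against 21.9% of all tested genes) and 2 fell (25%, near the 23.0% of all tested genes). The group was formed by family name and not by substrate. CYP3A43, a minor member of the CYP3A subfamily, had 0.635, 0.473 and 0.566 with siC and 3.34, 2.76 and 2.13 with siI1 (log2 fold change 2.1, SE 0.20, adjusted p = 0.00026 from limma). All of its siI1 values lay above all siC values, at 17 to 119 reads per library. CYP2S1, an extrahepatic P450 that metabolizes retinoids and eicosanoids, had 9.37, 11.8 and 11.7 with siC and 2.93, 3.32 and 3.49 with siI1 (log2 fold change -1.72, SE 0.12, adjusted p = 5.7e-05 from limma). Its groups did not overlap, with siI1 lower. CYP2J2, an epoxygenase of arachidonic acid, had 1.74, 2.43 and 2.06 with siC and 1.51, 1.36 and 1.5 with siI1 (log2 fold change -0.48, SE 0.15, adjusted p = 0.04 from limma). Although all its siI1 values were below siC, the call was lost without siI1 replicate 1 (adjusted p = 0.054 from limma) and without siC replicate 2, siC replicate 3, siI1 replicate 2 or siI1 replicate 3, where the adjusted p ran up to 0.12. It was also lost with median centring, with no filter and with the replicate number as a block (for the block, adjusted p = 0.07 from limma). CYP1A1, CYP2W1 and CYP3A7 were the other genes of these 3 families called higher, with log2 fold changes of 0.52, 0.53 and 0.94. CYP2U1 and CYP3A5 were not called; CYP2U1 was called higher with median centring, without the trend and with voom.

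Fatty acid hydroxylases of the CYP4 family moved in both directions, with 4 of 5 genes higher (80%, against 21.9% of all tested genes) and 1 lower (20%, near the 23.0% of all tested genes). CYP4F12, which hydroxylates long-chain fatty acids, had FPKM values of 2.62, 2.76 and 2.79 with siC and 10.6, 11.3 and 11.2 with siI1 (log2 fold change 1.98, SE 0.07, adjusted p = 5.4e-06 from limma). CYP4F2, the vitamin K and leukotriene hydroxylase, had 1.39, 1.66 and 1.29 with siC and 3.93, 3.96 and 3.71 with siI1 (log2 fold change 1.36, SE 0.12, adjusted p = 0.00018 from limma). For both genes every siI1 library lay above every siC library. CYP4F11, a close relative that also hydroxylates vitamin K, had 6.64, 5.45 and 5.86 with siC and 3.21, 2.52 and 2.88 with siI1 (log2 fold change -1.03, SE 0.12, adjusted p = 0.00056 from limma). Here every siI1 library lay below. The 4 CYP4F genes past the floor lie in a cluster of 6 CYP4F genes at chr19:15508525-15934867 (GRCh38), in which CYP4F3, CYP4F12 and CYP4F2 rose and CYP4F11, next to CYP4F2 and on the same strand, fell.

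CYP27A1, the mitochondrial sterol hydroxylase of bile acid synthesis, was the P450 gene with the highest mean FPKM, at 64.9, 70.8 and 66.9 with siC and 100.1, 121 and 119 with siI1 (log2 fold change 0.74, SE 0.08, adjusted p = 0.00053 from limma). The groups did not overlap, and siI1 replicate 1 was the lowest of its group. CYP7A1, the rate-limiting hydroxylase of the classical bile acid pathway, was not called (log2 fold change -0.1, groups overlapping). Among genes of hormone metabolism, CYP19A1, the aromatase that makes estrogens, had 1.73, 1.77 and 1.57 with siC and 8.04, 6.8 and 6.9 with siI1 (log2 fold change 2.04, SE 0.10, adjusted p = 2.0e-05 from limma). CYP24A1, which inactivates vitamin D, had 25, 24.6 and 29 with siC and 14.3, 12.1 and 12.8 with siI1 (log2 fold change -1.001, SE 0.09, adjusted p = 0.00019 from limma). CYP19A1 was thus higher and CYP24A1 lower in every siI1 library than in every siC library. CYP27B1, which activates vitamin D, had 0.749, 0.405 and 0.65 with siC and 0.451, 0.359 and 0.478 with siI1 and was not called, with overlapping groups and 18 to 40 reads per library.

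Of the 5 ADH genes past the floor, ADH4, ADH5 and ADH6 were past it in siC alone and rose, by very different amounts, while for ADH1A and ADH1B the floor itself required a rise. ADH4, which oxidizes ethanol and retinol, had 7.27, 8.17 and 7.99 with siC and 46.5, 48.2 and 43.3 with siI1 (log2 fold change 2.54, SE 0.07, adjusted p = 2.8e-06 from limma). ADH6, a liver alcohol dehydrogenase with little known of its substrates, had 13.2, 12.8 and 13 with siC and 42.1, 41.6 and 41 with siI1 (log2 fold change 1.67, SE 0.04, adjusted p = 2.8e-06 from limma). ADH1B, a main ethanol-oxidizing enzyme of adult liver, had 0.102, 0.0477 and 0.0629 with siC and 2.04, 2.02 and 2.09 with siI1 (log2 fold change 3.67, SE 0.21, adjusted p = 3.2e-05 from limma). In these 3 genes the groups lay far apart, but ADH1B rested on 7 to 17 reads per siC library against 298 to 317 per siI1 library, and the constant of 0.1 added to FPKM makes the log2 fold change of such low genes too small. ADH1A, its neighbour, had 1 to 6 reads with siC and 64 to 69 with siI1. ADH5, the glutathione-dependent formaldehyde dehydrogenase found in most cells, was the most abundant at 53.7, 56.8 and 55 with siC and 62, 62.5 and 62.6 with siI1 (log2 fold change 0.18, SE 0.05, adjusted p = 0.018 from limma). Its siI1 libraries all lay above siC, but the difference was small, and it was not called without siC replicate 1, siC replicate 3, siI1 replicate 2 or siI1 replicate 3 (adjusted p = 0.057 to 0.081 from limma) or after scaling to equal sums, where the log2 fold change was 0.01. All 7 ADH genes lie on the minus strand of chr4:99070978-99435510 (GRCh38), and the 2 others, ADH1C and ADH7, were under the floor.

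Among the aldehyde dehydrogenases, 7 of 14 genes were upregulated upon IGF2BP1 depletion. ALDH8A1, an enzyme of tryptophan breakdown through kynurenine, had 2.47, 2.63 and 2.79 with siC and 20.8, 20.4 and 20.5 with siI1 (log2 fold change 2.92, SE 0.07, adjusted p = 2.0e-06 from limma). ALDH1A1, which oxidizes retinal to retinoic acid, had 221, 223 and 220.4 with siC and 665, 630.1 and 626 with siI1 (log2 fold change 1.53, SE 0.06, adjusted p = 1.1e-05 from limma). ALDH1L1, the folate enzyme that releases carbon dioxide from formyltetrahydrofolate, had 2.5, 2.65 and 2.65 with siC and 6.8, 7.38 and 7.95 with siI1 (log2 fold change 1.47, SE 0.09, adjusted p = 3.2e-05 from limma). In all 3 genes the siI1 libraries lay above the siC libraries without overlap. ALDH7A1, which acts in lysine breakdown, ALDH3B1, which oxidizes lipid-derived aldehydes, and ALDH6A1, an enzyme of valine breakdown, rose by less, with log2 fold changes of 0.68, 0.78 and 0.35, as did ALDH3A1 with 0.41. The ALDH6A1 call was lost without siC replicate 2, siC replicate 3, siI1 replicate 1 or siI1 replicate 3 (adjusted p = 0.065 to 0.10 from limma) and with equal sums (adjusted p = 0.30).

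The 3 downregulated members of the family were ALDH18A1, ALDH9A1 and ALDH5A1. ALDH18A1, which makes the precursor of proline and ornithine, had 90.9, 77.7 and 86.6 with siC and 57.6, 55.2 and 52.7 with siI1 (log2 fold change -0.62, SE 0.07, adjusted p = 0.00058 from limma). ALDH9A1, an enzyme of carnitine synthesis, had 15.3, 14.8 and 14.5 with siC and 11.9, 11.2 and 11.1 with siI1 (log2 fold change -0.38, SE 0.06, adjusted p = 0.0016 from limma). ALDH5A1, the succinic semialdehyde dehydrogenase of GABA breakdown, had 21.8, 20.3 and 22.8 with siC and 19.7, 16.9 and 15.7 with siI1 (log2 fold change -0.32, SE 0.09, adjusted p = 0.03 from limma). The siI1 values of the 3 genes lay below their siC values, and ALDH5A1 was not called without siC replicate 1, siC replicate 3, siI1 replicate 2 or siI1 replicate 3 (adjusted p = 0.085 to 0.10 from limma) or with median centring (adjusted p = 0.092). ALDH1B1, ALDH3A2, ALDH4A1 and ALDH16A1 were not called, with overlapping groups. ALDH2, the mitochondrial enzyme that clears acetaldehyde, does not match the naming pattern and was chosen after its values were seen. It had 15.8, 18.1 and 15.8 with siC and 27.1, 31 and 30.9 with siI1 (log2 fold change 0.84, SE 0.08, adjusted p = 0.00025 from limma), with no overlap.

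Of the 5 UGT genes past the floor, all of the UGT2 family, 3 were lower with siI1. The UGT1A genes were under the floor, but they overlap each other and their single values are uncertain. UGT2B7, which glucuronidates morphine, steroids and fatty acids, had 49, 51.5 and 50.6 with siC and 18.7, 18.3 and 18.1 with siI1 (log2 fold change -1.45, SE 0.05, adjusted p = 4.0e-06 from limma). UGT2B10, which glucuronidates nicotine and tertiary amines, had 27.9, 26.8 and 26.2 with siC and 11, 9.0 and 10 with siI1 (log2 fold change -1.42, SE 0.08, adjusted p = 2.7e-05 from limma). UGT2B11, a relative with few known substrates, had 9.28, 8.75 and 8.4 with siC and 2.37, 2.17 and 2.62 with siI1 (log2 fold change -1.84, SE 0.09, adjusted p = 2.0e-05 from limma). No siI1 library of these genes reached any siC library. UGT2A3 had 21.1, 18.8 and 21.1 with siC and 30.4, 22 and 23.3 with siI1 (adjusted p = 0.097 from limma) and UGT2B4 3.75, 3.02 and 3.35 with siC and 4.1, 3.1 and 2.96 with siI1 (adjusted p = 0.98 from limma). The UGT2A3 groups did not overlap and the UGT2B4 groups did. UGT2A3 was called higher under 3 alternatives (median centring, replicate block and voom). The 10 UGT2 genes lie at chr4:68537173-69653249 (GRCh38), where UGT2A3 lies between UGT2B10 and UGT2B7.

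The 7 GST genes past the floor all rose, of which GSTM1 passed it only through siI1. GSTA1, the main alpha-class transferase of liver, had 98.4, 100.01 and 91.4 with siC and 527, 539 and 593 with siI1 (log2 fold change 2.52, SE 0.07, adjusted p = 3.3e-06 from limma). GSTA2, its close paralog, had 24.9, 19.5 and 21.9 with siC and 247, 255 and 249.8 with siI1 (log2 fold change 3.5, SE 0.09, adjusted p = 2.5e-06 from limma). GSTA4, which conjugates aldehydes from lipid peroxidation, had 16.2, 16.9 and 15.5 with siC and 53.1, 53.5 and 53.9 with siI1 (log2 fold change 1.72, SE 0.05, adjusted p = 3.3e-06 from limma). In all 3 genes the lowest siI1 library was over the highest siC library. The mu-class genes GSTM1, GSTM2, GSTM3 and GSTM4 rose with log2 fold changes of 1.68, 1.66, 0.89 and 0.52, of which GSTM1 rested on 9 to 18 reads per siC library. The GSTA genes lie at chr6:52750087-52995304 and the GSTM genes at chr1:109656099-109775428 (GRCh38), and every gene of either cluster past the floor was higher.

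SULT2A1 rose, and of the 7 SULT1 genes 2 rose and 2 fell (28.6% each), near the shares of protein-coding genes past the floor; SULT2B1, past the floor only through siI1, had to be higher. SULT2A1, which sulfates bile acids and the adrenal steroid DHEA, had 102, 93.6 and 99.9 with siC and 371, 399.7 and 391 with siI1 (log2 fold change 1.97, SE 0.06, adjusted p = 4.2e-06 from limma). SULT2B1, a cholesterol sulfotransferase, had 0.137, 0.104 and 0.0961 with siC and 1.39, 1.27 and 1.11 with siI1 at 4 to 6 reads per siC library (log2 fold change 2.67, SE 0.22, adjusted p = 0.00012 from limma). SULT1A2, a phenol sulfotransferase, had 15.6, 15.7 and 13.7 with siC and 22.7, 27.4 and 27.8 with siI1 (log2 fold change 0.78, SE 0.10, adjusted p = 0.00076 from limma). For these 3 genes siI1 was higher without overlap. SULT1E1, which inactivates estrogens by sulfation, had 2.52, 2.96 and 2.3 with siC and 1.41, 1.1 and 0.877 with siI1 (log2 fold change -1.14, SE 0.19, adjusted p = 0.0031 from limma). SULT1C2, a further phenol sulfotransferase, had 1.15, 1.08 and 1.29 with siC and 0.643, 0.54 and 0.517 with siI1 (log2 fold change -0.94, SE 0.18, adjusted p = 0.0048 from limma). Both were lower in every siI1 library. SULT1A4, at the FPKM floor, had 0.423, 0.816 and 0.411 with siC and 0.486, 0.521 and 0.832 with siI1, and its groups overlapped.

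Some of these genes share sequence with other annotated genes, so their values are uncertain as values of single genes. The share of 100-base windows of the gene's exons that also occur in another gene was 95.6% for SULT1A4, 79.6% for SULT1A3, 41.0% for CYP3A7, 29.1% for GSTM1, 19.3% for SULT1A1, 18.0% for SULT1A2, 15.6% for SULT1E1, 9.80% for GSTA2, 9.74% for GSTM2, 8.20% for UGT2B11, 8.09% for GSTA1 and 4.39% for UGT2B10. For the other named enzyme genes it was below 4.39%. The share of CYP3A7 was with a readthrough gene of its own locus and that of SULT1E1 with an unnamed gene overlapping it. Counting only genes that do not overlap on the same strand, the share was 0.0874% for CYP3A7, 0% for SULT1E1, 1.82% for GSTM1, 0.353% for GSTM2, 6.31% for SULT1A1 and 4.62% for SULT1A2.

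The promoters of 3 pairs of relatives are shown, each pair from the same gene cluster. They were chosen because GSTA1 and GSTA2 rose together, UGT2B10 and UGT2B11 fell together, and CYP4F2 and CYP4F11 moved in opposite directions. Each run gives the 250 bases before the RefSeq transcription start (GRCh38.p14), read along the gene's strand: GSTA1 at chr6:52803817-52804066 and GSTA2 at chr6:52763476-52763725 on the minus strand, UGT2B10 at chr4:68815744-68815993 on the plus strand, and UGT2B11 at chr4:69214749-69214998, CYP4F2 at chr19:15898075-15898324 and CYP4F11 at chr19:15934868-15935117 on the minus strand. Capitals mark matches, on either strand, to GTTAAT (part of an HNF1 site), AGGTCA (part of a nuclear receptor element) and TATAAA (the letters of a TATA box, wherever they lie). GCGTG (the core of a xenobiotic response element) was also searched and had no match in these windows.
GSTA1: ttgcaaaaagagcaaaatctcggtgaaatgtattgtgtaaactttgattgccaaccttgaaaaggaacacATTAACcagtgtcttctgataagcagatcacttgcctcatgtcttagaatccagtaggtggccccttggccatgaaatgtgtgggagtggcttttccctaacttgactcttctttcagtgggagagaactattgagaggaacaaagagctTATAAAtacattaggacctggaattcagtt
GSTA2: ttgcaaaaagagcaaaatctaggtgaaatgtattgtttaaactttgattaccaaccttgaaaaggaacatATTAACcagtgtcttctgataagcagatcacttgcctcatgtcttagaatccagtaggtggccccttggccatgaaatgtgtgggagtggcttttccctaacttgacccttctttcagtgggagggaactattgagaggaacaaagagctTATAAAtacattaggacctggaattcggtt
UGT2B10: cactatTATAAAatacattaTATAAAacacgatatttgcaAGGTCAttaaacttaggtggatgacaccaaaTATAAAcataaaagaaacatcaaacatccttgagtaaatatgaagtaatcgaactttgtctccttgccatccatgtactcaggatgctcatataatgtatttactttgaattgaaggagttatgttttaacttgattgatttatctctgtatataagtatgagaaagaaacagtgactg
UGT2B11: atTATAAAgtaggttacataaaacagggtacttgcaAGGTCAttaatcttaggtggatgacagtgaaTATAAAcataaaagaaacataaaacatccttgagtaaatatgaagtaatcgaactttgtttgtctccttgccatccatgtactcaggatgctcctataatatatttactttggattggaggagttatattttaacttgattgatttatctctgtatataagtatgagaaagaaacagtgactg
CYP4F2: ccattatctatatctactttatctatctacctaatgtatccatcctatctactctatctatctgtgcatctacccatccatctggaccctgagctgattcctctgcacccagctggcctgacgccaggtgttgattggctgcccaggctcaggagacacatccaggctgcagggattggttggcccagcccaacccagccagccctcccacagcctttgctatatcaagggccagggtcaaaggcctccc
CYP4F11: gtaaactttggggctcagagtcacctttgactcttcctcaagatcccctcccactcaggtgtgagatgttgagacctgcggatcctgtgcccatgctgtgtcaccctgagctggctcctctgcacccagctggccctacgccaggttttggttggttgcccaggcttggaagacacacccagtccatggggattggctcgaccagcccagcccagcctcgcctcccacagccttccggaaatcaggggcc
GSTA1 and GSTA2 were the same at 243 of 250 bases (97.2%), and both hold GTTAAT on the minus strand from base -180 and TATAAA from base -30. In alignments with gaps, UGT2B10 and UGT2B11 were the same at 229 of 246 aligned bases (93.1%), with 4 bases in gaps, and AGGTCA begins at base -210 in the former and -214 in the latter. Their TATAAA matches begin at bases -244, -230 and -179 in UGT2B10 and at -248 and -183 in UGT2B11, far from the -30 of the GSTA genes. CYP4F2 and CYP4F11 were the same at 167 of 230 aligned bases (72.6%), with 15 bases in gaps, and hold none of the 4 motifs. The 3 pairs were chosen by direction and no other pair was aligned, so a link between promoter identity and direction was not tested. Among the 50 of 59 enzyme genes with a promoter in the RefSeq table, 7 held GTTAAT (14%), 10 AGGTCA (20%), 9 GCGTG (18%) and 10 TATAAA (20%). The shares over all 35116 promoters were 6.23%, 12.1%, 32.2% and 10.7%, in the same order. A match describes the letters and not a bound site.

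BE(2)-C cells expressed few of the 59 genes. With 0 reads in every BE(2)-C library were 22 of them, among them GSTA1, GSTA2, SULT2A1, ADH4 and all 5 UGT genes; for GSTA1, a count of 0 allows an FPKM of up to 0.190 to 0.230, depending on the library. A mean FPKM of at least 0.5 was reached by 17 genes, and 23 could be tested. Of these, 5 were called higher and 8 lower upon IGF2BP1 depletion, against 13.3% and 14.8% of all 18656 genes tested in BE(2)-C. Without siI1 replicate 1 the count of higher genes was 3, and without siI1 replicate 2 the count of lower genes was 5. The median log2 fold change was -0.09 over the 23 genes and 0.02 over all tested genes. The summed FPKM of the 59 genes was 178 ± 5.55 with siC and 187 ± 4.81 with siI1, with overlapping libraries.

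The aldehyde dehydrogenases gave most of the calls in BE(2)-C, with 7 of 10 tested genes lower and 2 higher, against 14.8% lower and 13.3% higher of all tested genes. Without siI1 replicate 2 these counts were 4 and 1, with ALDH3A2, ALDH6A1, ALDH16A1 and ALDH5A1 no longer called, and ALDH3A2 and ALDH16A1 were also lost without siI1 replicate 3. ALDH18A1, the member with the highest mean level there, had 52.4, 45.3 and 46.7 with siC and 55.3, 52.5 and 54.3 with siI1 and was not called (adjusted p = 0.085 from limma), although siI1 lay above siC. ADH5 had 22.4, 26.5 and 23 with siC and 20.8, 20.6 and 20.4 with siI1, with siI1 below siC and no call (adjusted p = 0.055 from limma). GSTA4 had 15.7, 13.4 and 14.5 with siC and 23.9, 21.5 and 24.3 with siI1 (log2 fold change 0.67, SE 0.07, adjusted p = 0.0011 from limma) and GSTM3, a mu-class transferase of brain and testis, 12.2, 12.3 and 10.4 with siC and 20.7, 19.2 and 19.3 with siI1 (log2 fold change 0.76, SE 0.07, adjusted p = 0.00074 from limma). These transferases rose in both cell lines, and their groups did not overlap in either. SULT1C4 was called higher from 3 reads per siC library and 11 to 17 per siI1 library, a call that was lost without siI1 replicate 1. None of the 5 tested CYP genes was called by limma at an adjusted p below 0.05; CYP2U1 came nearest (adjusted p = 0.073) and was called with voom, with a filter at FPKM 1 and without siC replicate 1.

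The difference of the log2 fold changes between the cell lines, which also received different siRNA concentrations, was tested for the 23 genes tested in both. It was called for 19 of them, against 40.2% of all 15362 genes tested in both lines, and 14 of the 19 were more positive in Hep-G2. GSTM1 and CYP27B1 are among the 19, although the floor fixed their direction in Hep-G2. Without these 2 genes, 17 of 21 were called and 13 of them were more positive in Hep-G2. The directions of the differences over all genes are not given here. These counts of directions therefore describe the enzyme genes and do not set them apart from other genes. Of the 8 genes called in both lines, GSTA4 and GSTM3 rose in both and 6 moved in opposite directions, against 34.7% in opposite directions among all 2574 genes called in both lines. ALDH7A1 had 6.27, 6.44 and 5.88 with siC and 10.1, 10.1 and 9.8 with siI1 in Hep-G2 and 7.92, 8.76 and 7.77 with siC and 5.54, 5.12 and 5.16 with siI1 in BE(2)-C (difference 1.3, SE 0.09, adjusted p = 1.7e-06 from limma). ALDH9A1 in BE(2)-C had 15.5, 15.2 and 15.2 with siC and 18.2, 17.9 and 17.5 with siI1, higher with siI1, whereas it was lower with siI1 in Hep-G2 (difference -0.6, SE 0.06, adjusted p = 3.0e-05 from limma). GSTA4 rose more in Hep-G2 than in BE(2)-C (difference 1.05, SE 0.09, adjusted p = 7.6e-06 from limma). The groups did not overlap in either line for any of these 3 genes.

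ALDH3B1 had 2.6, 2.89 and 2.6 with siC and 4.13, 5.21 and 4.75 with siI1 in Hep-G2 and 0.967, 0.60 and 0.648 with siC and 0.234, 0.139 and 0.239 with siI1 in BE(2)-C (difference 2.23, SE 0.27, adjusted p = 8.2e-05 from limma). GSTM4, a mu-class transferase, had 9.39, 10.3 and 10.5 with siC and 12.9, 15.4 and 15.1 with siI1 in Hep-G2 and 3.35, 2.53 and 2.79 with siC and 1.72, 1.33 and 1.57 with siI1 in BE(2)-C (difference 1.38, SE 0.17, adjusted p = 8.0e-05 from limma). Every siI1 library lay above siC in Hep-G2 and below it in BE(2)-C for both genes. ALDH6A1 had 6.23, 5.13 and 5.3 with siC and 7.85, 6.5 and 6.98 with siI1 in Hep-G2 and 0.855, 1.0 and 1.27 with siC and 0.513, 0.508 and 0.658 with siI1 in BE(2)-C (difference 1.1, SE 0.21, adjusted p = 0.0015 from limma). ALDH5A1 went the other way, with 2.91, 3.28 and 3.2 with siC and 3.86, 4.07 and 3.91 with siI1 in BE(2)-C (difference -0.65, SE 0.12, adjusted p = 0.0013 from limma). In these 2 genes too the siI1 and siC libraries did not overlap in either line. Their calls in BE(2)-C were less stable: ALDH5A1 was not called without siI1 replicate 1, 2 or 3 (adjusted p = 0.058 to 0.081 from limma), and ALDH6A1 was not called without siC replicate 2 or 3 or siI1 replicate 1 or 2 (adjusted p = 0.067 to 0.084). GSTM3 had 10.9, 12.9 and 12.6 with siC and 19.3, 24 and 24.6 with siI1 in Hep-G2, and its effects in the lines were not called different (difference 0.13, SE 0.14, adjusted p = 0.51 from limma). ALDH2 had 11.5, 11.8 and 10.9 with siC and 10, 9.19 and 9.62 with siI1 in BE(2)-C (log2 fold change -0.24, SE 0.06, adjusted p = 0.019 from limma), lower with siI1 where Hep-G2 was higher.

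**Figure D4:**
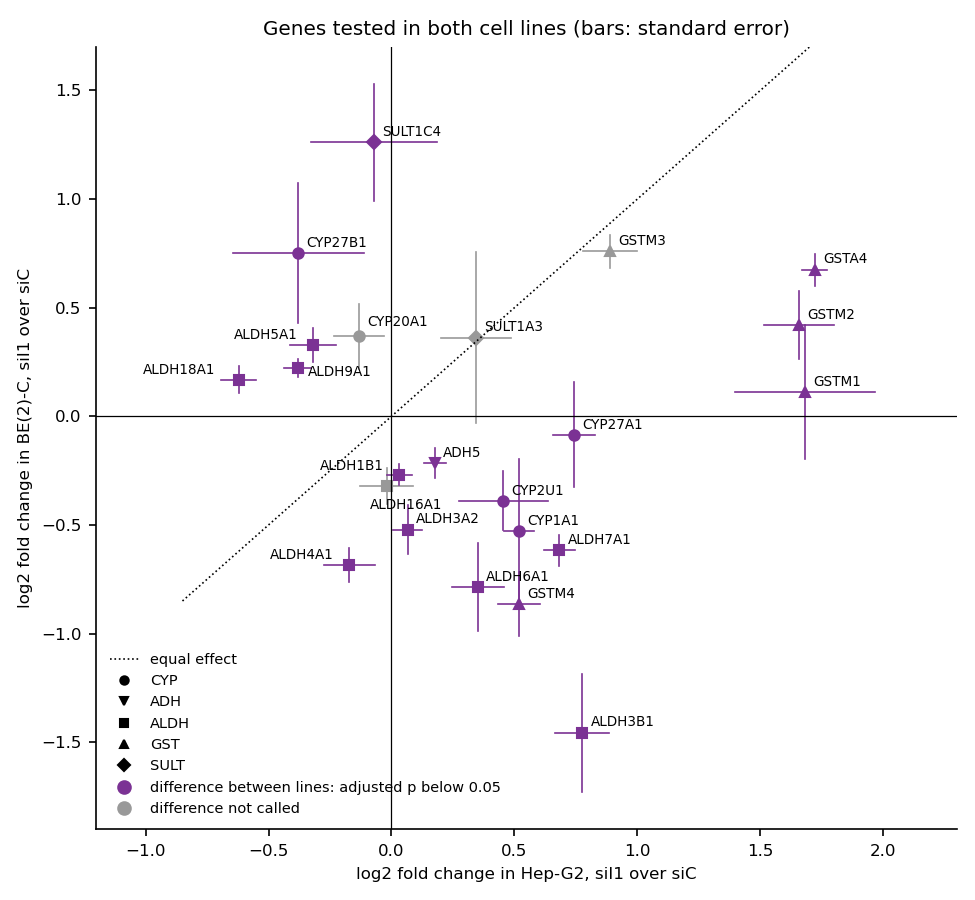
Log2 fold change of siI1 over siC in Hep-G2 (horizontal) against BE(2)-C (vertical) for the 23 enzyme genes tested in both lines, with standard errors as bars, marker shapes for families and the dotted line for equal effects; purple genes differed between the lines (adjusted p below 0.05 from limma). GSTA4 and GSTM3 lie in the upper right, and ALDH3B1, GSTM4, ALDH7A1 and ALDH6A1 in the lower right.

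Genes around these enzymes were taken from 4 lists. Their counts stand against 21.9% higher and 23.0% lower of all tested genes in Hep-G2 (26.6% and 33.0% of the protein-coding genes past the floor) and 13.3% and 14.8% in BE(2)-C. Of 26 xenobiotic receptors and liver transcription factors, 25 were tested in Hep-G2: 10 were higher (40%), 7 lower (28%) and 8 not called, with a median log2 fold change of 0.21. CEBPA, a factor of hepatocyte differentiation, had 44.2, 46.3 and 46.3 with siC and 153, 169 and 173 with siI1 (log2 fold change 1.85, SE 0.06, adjusted p = 5.1e-06 from limma). NR0B2, the repressor induced by bile acids, had 79.9, 94.7 and 86.6 with siC and 21, 23.5 and 22.9 with siI1 (log2 fold change -1.95, SE 0.08, adjusted p = 9.5e-06 from limma). The siI1 libraries of CEBPA all lay above and those of NR0B2 all below the siC libraries. FOXA3, a liver forkhead factor, and NR1H4, the bile acid receptor, rose with log2 fold changes of 0.86 and 0.94. The xenobiotic receptor NR1I2 and the oxidative stress factor NFE2L2 fell, with -0.5 and -0.42. In BE(2)-C, 2 of 13 tested genes of this list were higher (15.4%) and 4 lower (30.8%).

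Redox partners, heme synthesis and cosubstrate supply formed a list of 17 genes, all tested in Hep-G2, with 10 higher (58.8%, against 21.9% of all tested genes), 4 lower (23.5%, against 23.0%) and a median of 0.28. CYB5A, the cytochrome b5 that passes electrons to P450 enzymes, had 18, 18.5 and 17.8 with siC and 38.2, 43.2 and 43.8 with siI1 (log2 fold change 1.2, SE 0.06, adjusted p = 2.4e-05 from limma). FDXR, the reductase serving mitochondrial P450 enzymes, and PGRMC1, a heme-binding partner, rose with log2 fold changes of 0.96 and 0.5. UGDH, which makes the UDP-glucuronic acid used by UGT enzymes, had 141, 134 and 136 with siC and 84.4, 72.1 and 75.2 with siI1 (log2 fold change -0.83, SE 0.07, adjusted p = 0.00014 from limma). CYB5A was higher and UGDH lower with siI1, each without overlap. CYB5B, the cytochrome b5 of the outer mitochondrial membrane, and PAPSS1, which makes the sulfate donor of SULT enzymes, fell with -0.37 and -0.26. In BE(2)-C none of the 17 genes was called higher by limma and 8 were lower (47.1%), against 13.3% and 14.8% of all tested genes.

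Other drug metabolizing enzymes counted 39 tested of 44 listed genes in Hep-G2, 16 higher (41.0%) and 9 lower (23.1%; 5 genes lower without siC replicate 3 and 14 with equal sums of FPKM), with a median of 0.19, against 21.9% and 23.0% of all tested genes. CES1, the liver carboxylesterase that cleaves ester drugs, had 10.6, 9.82 and 11.3 with siC and 46.5, 51.6 and 43.5 with siI1 (log2 fold change 2.15, SE 0.08, adjusted p = 8.1e-06 from limma). AKR1B10, an aldo-keto reductase that reduces retinal, had 488, 484 and 484 with siC and 132, 121 and 128 with siI1 (log2 fold change -1.94, SE 0.06, adjusted p = 4.0e-06 from limma). CES1 rose and AKR1B10 fell in every siI1 library against every siC library. The amine oxidase MAOB and the steroid reductase AKR1C2 rose as well, with log2 fold changes of 1.24 and 1.19. FMO5, a flavin monooxygenase, and TPMT, which methylates thiopurines, fell with -1.72 and -0.41. In BE(2)-C, 4 of 26 tested genes were higher (15.4%) and 5 lower (19.2%), near the 13.3% and 14.8% of all tested genes.

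Hepatic drug and bile acid transporters were tested for 18 of 21 listed genes, with 7 higher, 6 lower and a median of 0.02, against 26.6% and 33.0% of the protein-coding genes past the floor, so that the counts say little about the list. SLC22A9, an anion transporter of liver, had 1.15, 0.932 and 1.29 with siC and 5.42, 4.65 and 5.76 with siI1 (log2 fold change 2.14, SE 0.15, adjusted p = 6.5e-05 from limma). ABCG2, a drug efflux pump, had 7.32, 6.7 and 6.57 with siC and 2.52, 2.71 and 2.56 with siI1 (log2 fold change -1.37, SE 0.08, adjusted p = 3.4e-05 from limma). The first was higher and the second lower with siI1, both without overlap. ABCC6, a liver efflux transporter, and SLC47A1, which exports organic cations, rose with 1.79 and 0.97, whereas ABCB1, a further efflux pump, and SLC51B, a bile acid exporter subunit, fell with -1.26 and -1.93. In BE(2)-C, 3 of 8 tested transporters were higher (37.5%) and 1 lower (12.5%). The plot of the related lists sets these genes beside the 59 enzyme genes.

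**Figure D5:**
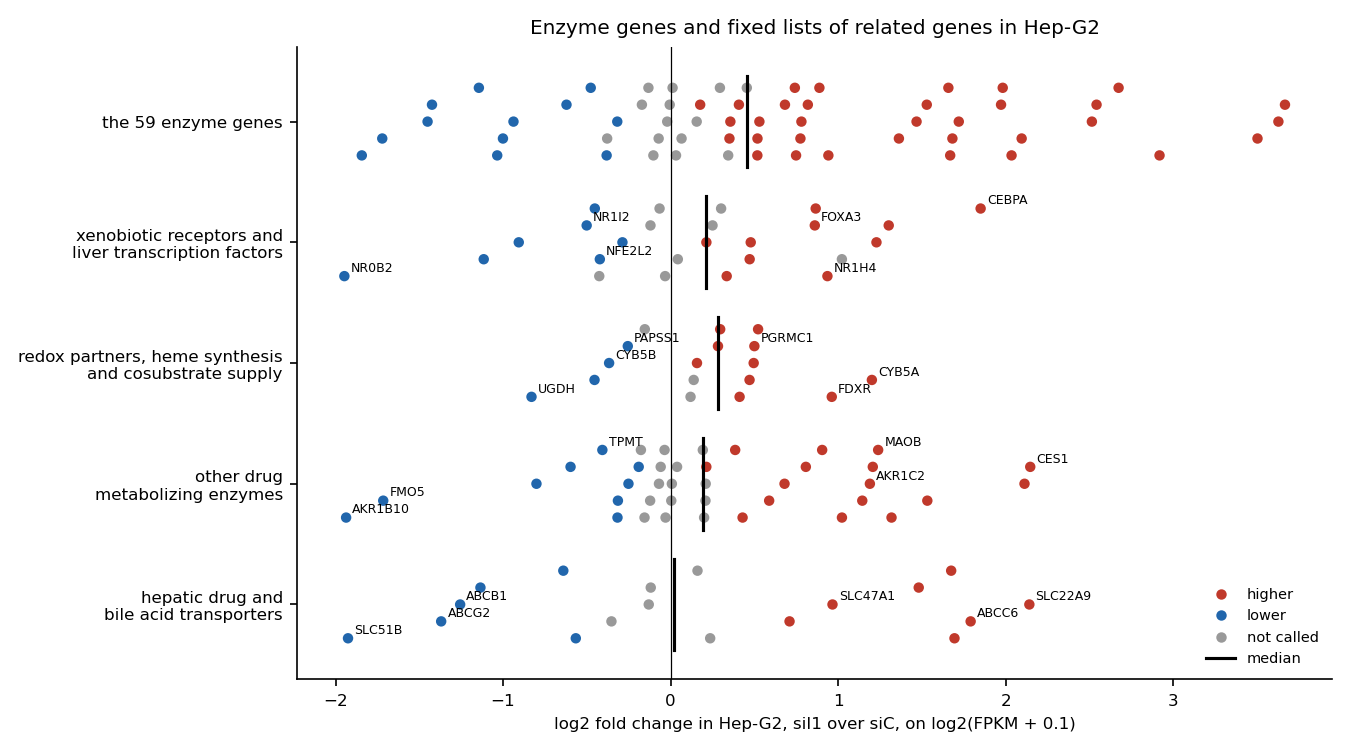
Log2 fold change of siI1 over siC in Hep-G2 for the 59 enzyme genes and for the tested genes of the 4 related lists; red points were called higher, blue points lower and grey points not called, black bars mark medians, and the vertical spread only separates points. The medians are 0.46, 0.21, 0.28, 0.19 and 0.02 from top to bottom.

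Markers of the labelled cell types were present. The 10 hepatocyte and hepatoblast markers summed to 10197, 10540 and 10259 FPKM with siC and 14032, 16029 and 16236 with siI1 in Hep-G2. ALB was the most abundant, and 6 genes were higher (60%) and 3 lower (30%), against 21.9% and 23.0% of all tested genes. AFP, a fetal liver marker, was among the 3 lower ones (log2 fold change -0.59). The part of this shift in the enzyme results was not tested. The same markers summed to at most 0.237 in any BE(2)-C library, where the 9 neuroblast markers summed to 3544 to 4049.7, led by MYCN. Of these 9, 3 were higher and 3 lower (33.3% each), against 13.3% and 14.8% of all genes tested in BE(2)-C. In Hep-G2 the neuroblast markers summed to at most 0.620 and HAND2, ISL1 and CHGA had 0 reads.

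Of 5 cholangiocyte markers, EPCAM was higher and KRT19 and SOX9 were lower in Hep-G2. They summed to 560, 635 and 604 FPKM with siC and 411, 514 and 528 with siI1, led by KRT19, while CFTR had at most 1 read per library. The 5 leukocyte markers summed to 0.769, 0.895 and 0.683 with siC and 2.61, 2.14 and 2.06 with siI1, nearly all from CD14, which was the only one tested and was higher; PTPRC had at most 6 reads per library. The 6 fibroblast or stellate markers summed to at most 2.04 and the 5 endothelial markers to at most 0.237 in any Hep-G2 library, led by PDGFRB and PECAM1, and none of their tested genes was called by limma. In BE(2)-C the 6 fibroblast or stellate markers summed to 29.2, 25.2 and 29.5 with siC. With siI1 they summed to 36.6, 37.8 and 35.8, and 2 of them were called higher. CD14 (log2 fold change -1.2) and 1 of 3 tested cholangiocyte markers were lower there. The part of these markers in the enzyme results of either line was not tested.

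Several well-known drug metabolizing genes were under the FPKM floor in Hep-G2; they are named here after their values were seen. CYP3A4, the main drug-oxidizing P450 of adult liver, had 0.226, 0.187 and 0.151 with siC and 0.40, 0.372 and 0.381 with siI1 at 7 to 17 reads per library, and UGT1A1, the bilirubin transferase, had 0.36, 0.394 and 0.395 with siC and 0.248, 0.154 and 0.134 with siI1. CYP2E1, the ethanol-oxidizing P450, had 0.0134, 0.00763 and 0.0141 with siC and 0.392, 0.193 and 0.21 with siI1. GSTP1, the pi-class transferase, had 0, 0.0383 and 0.0354 with siC and 0.193, 0.932 and 0.234 with siI1 in Hep-G2 but 453, 407 and 397 with siC and 362, 336 and 336 with siI1 in BE(2)-C. In Hep-G2, limma called CYP3A4, CYP2E1 and GSTP1 higher (adjusted p = 0.042, 0.0074 and 0.024) and UGT1A1 lower (adjusted p = 0.045). The CYP2E1 call rested on 1 to 2 reads per siC library and 27 to 51 per siI1 library. For GSTP1 these were 0 to 1 and 5 to 26 reads. UGT1A1 had 24 to 26 reads per siC library and 8 to 15 per siI1 library. It overlaps other UGT1A genes on the same strand, which end at the same base (chr2:233773300, GRCh38). How reads in the shared stretch were assigned is not stated in the sources used. The low values of the UGT1A genes are therefore uncertain as values of single genes. In BE(2)-C, GSTP1 was lower with siI1 in every library (log2 fold change -0.28, SE 0.07, adjusted p = 0.02 from limma).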

How the data were processed

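The deposited FPKM values of both cell lines were used as the authors computed them: reads were clipped with cutadapt 1.14, aligned to hg38 with HISAT2 2.1.0, counted per gene with featureCounts 1.5.3 on Ensembl annotation and normalized with edgeR 3.30.3 (TMM). The unit was read from the values, since FPKM times gene length and a library size fitted per library gave whole reads for 100% of values in every library (tolerance 0.01). The strand setting of featureCounts is not stated in the sources used. The deposited fold change, p-value and FDR columns hold the authors' edgeR comparison and were not used here.

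Each line was fitted with limma 3.58.1 (R 4.3.3) on log2(FPKM + 0.1) with a mean-variance trend, for genes that reached FPKM 0.1 in 3 or more of 6 libraries. P-values are two-sided and Benjamini-Hochberg adjusted over all tested genes, with a threshold of 0.05. A joint fit of all 12 libraries tested the difference between lines. Replicates were treated as unpaired. A check of the test on simulated data was made, but its result is not given here and no statement rests on it. Members and lists were chosen with earlier results of these data known. Named were, per family, the up to 3 (CYP: 5) higher and 3 (CYP: 5) lower called genes with the smallest p, the most abundant one, genes beside the floor, the 3 most abundant in BE(2)-C, those called in both lines, the 3 with the smallest p for the difference, the 3 higher and 3 lower of each related list, IGF2BP1 and the markers. Alternatives were other pseudocounts, filters, scalings, thresholds, floors, no trend, a replicate block, voom and leaving out each library. Gene positions came from GENCODE 44 (GRCh38). Promoter pairs were aligned globally with Biopython 1.88 (match 1, mismatch -1, gap opening -3, extension -1, free ends). Python 3.11.15, NumPy 2.4.6, pandas 2.3.3 and Matplotlib 3.10.9 made the tables and figures. Limits given for counts of 0 take 3 reads and cover counting error only. One planned neuroblast marker is not reported here.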

Additional observations from a re-analysis of the deposited data

Results flagged for a closer look

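For 19 of the 23 enzyme genes tested in both cell lines, the knockdown effect differed between the lines (adjusted p below 0.05 from limma), and each is listed by its log2 fold change in Hep-G2 minus that in BE(2)-C. More positive in Hep-G2 were ALDH3B1 (2.23), GSTM1 (1.57), GSTM4 (1.38), ALDH7A1 (1.30), GSTM2 (1.24), ALDH6A1 (1.1), CYP1A1 (1.05), GSTA4 (1.05), CYP2U1 (0.84), CYP27A1 (0.83), ALDH3A2 (0.59), ALDH4A1 (0.51), ADH5 (0.39) and ALDH1B1 (0.30). Less positive in Hep-G2 were SULT1C4 (-1.33), CYP27B1 (-1.13), ALDH18A1 (-0.79), ALDH5A1 (-0.65) and ALDH9A1 (-0.60). GSTM1 passed the FPKM floor in Hep-G2 only through siI1 and CYP27B1 only through siC, so the floor fixed the direction of their effects in that line. CYP27B1 was only just past the threshold (adjusted p = 0.0497 from limma), and SULT1C4 had 3 reads in each BE(2)-C siC library. The difference was no longer called for ADH5 and ALDH1B1 with equal sums of FPKM, for CYP27A1 with voom and for SULT1C4 with a pseudocount of 1. CYP27B1 was lost with median centring, with pseudocounts of 0.01 and 1, with no filter and with the replicate block. It was also lost when any single library except BE(2)-C siI1 replicate 2 or Hep-G2 siC replicate 2 was left out. Each line was normalized on its own, so only effects within a line are compared.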

How the results depend on the processing

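In Hep-G2 the counts of enzyme genes called higher and lower, 33 and 12, ran from 31 to 32 and from 10 to 11 when single libraries were left out, and from 31 to 36 and from 10 to 14 under other pseudocounts, filters, scalings, no trend, a replicate block and voom. A log2 fold change of at least 1 as a further condition gave 18 higher and 7 lower in Hep-G2, 1 higher and 1 lower in BE(2)-C and 10 genes with a difference between lines, as fewer genes meet both conditions. An adjusted p below 0.01 gave 3 higher and 5 lower in BE(2)-C. A filter at FPKM 1 left 12 genes with a difference between lines, since fewer were tested, and no filter gave 25 (ADH6, ALDH1A1, ALDH1L1, ALDH8A1, CYP19A1, CYP2S1 and SULT2B1 gained, CYP27B1 lost). Leaving out single libraries gave 3 to 7 higher (3 without siI1 replicate 1) and 5 to 11 lower genes in BE(2)-C (5 without siI1 replicate 2), 18 to 20 differences between lines, and 5 to 9 lower genes among the other drug metabolizing enzymes in Hep-G2 (5 without siC replicate 3). That last count was 14 with equal sums of FPKM. The cause was not tested.

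No gene called in the main analysis was called in the opposite direction under an alternative. For the 37 named enzyme genes in Hep-G2, 422 of 444 results under other pseudocounts, scalings, the block, voom and single libraries left out stayed on the same side of the threshold and 22 lost their call, all for ADH5, ALDH5A1, ALDH6A1 and CYP2J2. Besides these, no trend lost ADH5, ALDH5A1 and ALDH6A1, and no filter lost ALDH6A1 and CYP2J2. For the 12 of them tested in BE(2)-C it was 131 of 144, with 7 lost (ALDH5A1, ALDH6A1) and 6 gained (ADH5, ALDH18A1); besides these, no filter lost ALDH6A1, and a filter at FPKM 1 left ALDH3B1 and ALDH6A1 untested and gained ADH5. Among all enzyme genes in Hep-G2, UGT2A3 was gained with median centring, the block and voom, CYP2U1 with median centring, no trend and voom, SULT1A3 with median centring, and ALDH1B1 and ALDH4A1 with equal sums. Also gained in BE(2)-C were CYP2U1 (voom, a filter at FPKM 1, without siC replicate 1), GSTM2 (voom, without siC replicate 1), CYP1A1 (without siC replicate 1) and CYP20A1 (without siC replicate 3). The replicate numbers did not pair the libraries (correlations of same-numbered libraries: Hep-G2 0.06, 0.04, -0.01; BE(2)-C 0.02, -0.01, -0.00). With the number as a block, 44 of 45 calls were kept in Hep-G2 (CYP2J2 lost, UGT2A3 gained), 13 of 13 in BE(2)-C and 18 of 19 differences (CYP27B1 lost, CYP20A1 gained).

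These are 3 libraries per group from cell lines at a single time point. FPKM values compare RNA levels within a library and not absolute amounts per cell or enzyme activity. Genes with fewer than 20 reads per library, such as ADH1A, ADH1B, SULT2B1 and GSTM1 with siC, have wide counting error. Genes that share sequence with paralogs, SULT1A3 and SULT1A4 above all, are uncertain as single genes.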
